A study of Mus musculus with 8 samples.

Results

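The neutrophil genes described here were 10 of the 51789 genes in the count table. S100a8, S100a9, Camp, Ngp, Mmp8 and Retnlg encode proteins of neutrophil granules or cytosol, Cxcr2 and Csf3r encode receptors, Il1b encodes a cytokine, and Ly6g encodes the surface antigen used to identify mouse neutrophils. They were chosen by name as markers, with earlier results of these data known. The shares of all genes set beside them below are therefore descriptions and no test of the list. All 10 were found in the table, and 9 of them were among the 17858 genes that passed the filter on low counts and were tested. Ly6g did not pass it. Camp passed it through 2 sEV-NORM libraries alone, so that it could be tested only where sEV-NORM was high, and it is left out of the counts and medians over the members. These are therefore given for the other 8 genes and, in a fit without the filter, for all 10. The libraries came from whole mammary glands of female C57BL/6 mice taken 6 weeks after a single injection of small extracellular vesicles (sEVs), membrane particles shed by cells. The vesicles had been collected from AT3, a cell line from a metastatic mammary adenocarcinoma of the mouse, kept in normoxia (sEV-NORM, 3 libraries, "normoxia exosomes" in the labels) or in hypoxia (sEV-HYP, 2 libraries). The sEV-CTRL glands (3 libraries) received the same preparation made from medium that no cells had conditioned. All 8 glands were therefore injected, and no uninjected gland was compared. The sEV-NORM and sEV-HYP groups rest on vesicles of 1 cell line, and markers of fat cells, B cells and skeletal muscle were present beside those of epithelium. Total counts per library were 18194996 to 24622569.

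Neutrophils are short-lived phagocytes made in the bone marrow under the control of granulocyte colony-stimulating factor, which signals through Csf3r. They enter tissue along gradients of chemokines that bind Cxcr2, and their granules form in waves, with primary granule proteins made first and specific and gelatinase granule proteins later in maturation. Their messenger RNA for granule proteins is mostly made before they leave the marrow, while S100a8 and S100a9 stay abundant in mature cells. In whole tissue the markers are not equally selective. Ngp, Camp and Ly6g are close to restricted to neutrophils, S100a8 and S100a9 are also made by monocytes and by stressed keratinocytes, Il1b by macrophages, and Cxcr2 and Csf3r by several other cell types.

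The promoters of S100a8, S100a9 and Ngp are shown because these genes had the largest differences between groups among the members with counts in every library. S100a8 and S100a9 lie on chromosome 3 of GRCm38 (mm10), S100a8 (ENSMUSG00000056054) on the plus strand at chr3:90668978-90670035 and S100a9 (ENSMUSG00000056071) on the minus strand at chr3:90692632-90695721. Ngp (ENSMUSG00000032484) lies on the plus strand at chr9:110419747-110423012. The 250 bases before each RefSeq start (GRCm38.p6) are chr3:90668821-90669070 for S100a8, chr3:90695722-90695971 for S100a9 on the minus strand, and chr9:110419558-110419807 for Ngp. Each is written 5′ to 3′ on the strand of its gene, with capitals marking every match to the motifs searched.
S100a8: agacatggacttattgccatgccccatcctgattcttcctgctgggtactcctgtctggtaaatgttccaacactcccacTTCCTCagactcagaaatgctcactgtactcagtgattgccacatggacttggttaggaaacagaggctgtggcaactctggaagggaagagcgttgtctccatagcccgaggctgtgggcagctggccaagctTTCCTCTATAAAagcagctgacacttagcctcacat
S100a9: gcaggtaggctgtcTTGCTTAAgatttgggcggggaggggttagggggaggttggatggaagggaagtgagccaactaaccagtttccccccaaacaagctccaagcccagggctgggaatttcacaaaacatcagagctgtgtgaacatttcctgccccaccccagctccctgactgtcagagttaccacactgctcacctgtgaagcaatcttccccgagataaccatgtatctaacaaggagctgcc
Ngp: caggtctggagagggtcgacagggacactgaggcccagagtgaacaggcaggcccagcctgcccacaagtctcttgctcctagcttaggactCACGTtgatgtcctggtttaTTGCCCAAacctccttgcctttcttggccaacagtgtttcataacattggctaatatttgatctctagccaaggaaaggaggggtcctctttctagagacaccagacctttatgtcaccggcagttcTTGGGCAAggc

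Motifs were searched as exact letters on both strands in windows from 250 bases before to 50 bases after the start. All 10 members had a window, and 32851 windows were searched in all. A member was counted once, also where it had more than 1 window. The letters of the TATA box (TATAAA) occurred, on either strand and at any position, in 5 of the 10 members and in 13.6% of all windows. Only in S100a8 and Il1b did they lie near -30, at -30 and -31. A C/EBP motif (TTNNGCAA), bound by factors of the granulocyte lineage, occurred in 5 members and in 10.8% of all windows. A PU.1 core (GAGGAA), named after the myeloid factor encoded by Spi1, occurred in 5 members and in 28.3% of all windows. The core of the hypoxia response element (ACGTG) occurred in 1 member, Ngp, and in 19.6% of all windows. Positions are counted from the annotated start, with the first transcribed base as 1. In S100a8 the TATA box began at position -30, directly after a PU.1 match on the opposite strand at -36, and a second PU.1 match began at -170. In S100a9 a C/EBP match on the opposite strand began at -236, and the only TATAAA began at position 1, outside the bases printed. Ngp had C/EBP matches at -138 and -11, and its hypoxia response element core began at -158. Camp had no match to any of the motifs in its window. A match describes the letters of the window and no binding was measured.

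**Figure D1:**
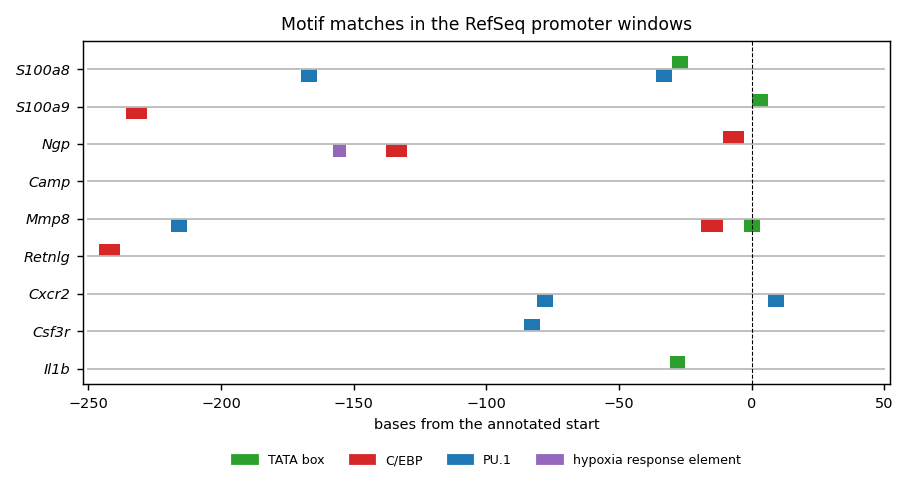
Matches to the motifs in the RefSeq promoter windows of 9 neutrophil genes, by distance in bases from the annotated start (dashed line). Bars above a line are on the strand of the gene and bars below it on the opposite strand. S100a8 and Il1b have a TATA box near -30, Ngp has C/EBP matches at -138 and -11, and Camp has none of the motifs.

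The levels of the 10 genes spanned a wide range. Per kilobase of merged exon, mean levels in CPM (counts divided by the TMM-normalized library size) over the 8 libraries were 27.8 for S100a9, 23.9 for S100a8, 8.9 for Retnlg, 5.15 for Cxcr2, 2.51 for Ngp, 1.98 for Il1b, 1.82 for Csf3r, 0.733 for Mmp8, 0.398 for Camp and 0.145 for Ly6g. Neighbours in this order differed by less than the SD over libraries of at least one of the pair, except Csf3r and Mmp8. All levels below are CPM without division by length and are compared only between libraries. The genes also differed in how far they varied. The coefficient of variation over the 8 libraries was 1.36 for Ngp, 1.07 for S100a8 and 1.05 for S100a9, against a median of 0.22 over all genes tested, while that of Csf3r was 0.188.

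The library sEV-NORM replicate 2 held the highest level of 9 of the 10 genes, and sEV-HYP replicate 2 held the lowest level of 8, counting Camp and Ly6g, which had no counts in either sEV-HYP library. The exceptions were Il1b, highest in sEV-HYP replicate 1, and Mmp8 and Il1b, lowest in sEV-CTRL replicate 2. The summed level of the 10 genes was 86.1, 24.5 and 54.9 CPM in sEV-CTRL replicates 1 to 3, 71.5, 185 and 52.9 CPM in sEV-NORM, and 45.2 and 20.9 CPM in sEV-HYP. The spread within the sEV-CTRL and sEV-NORM groups was therefore more than 3-fold, and the sEV-HYP sums lay within the range of sEV-CTRL or below it. Markers of other tissue components moved with these sums. B cell markers summed to 2353, 1096 and 1262 CPM in sEV-CTRL, 1673, 2687 and 1096 CPM in sEV-NORM, and 1685 and 785 CPM in sEV-HYP, so that the highest and the lowest libraries were those of the neutrophil genes. Skeletal muscle markers ran the opposite way, with 610, 7423 and 2181 CPM in sEV-CTRL, 2607, 9.89 and 1204 CPM in sEV-NORM, and 4107 and 11572 CPM in sEV-HYP. No B cell or skeletal muscle marker was at 0 in every library. The calls for the neutrophil genes below are therefore also given with the mean log2 CPM of each of these lists as a covariate. This alternative was chosen after the data were seen. In whole glands, fewer neutrophils and less of these RNAs per neutrophil cannot be told apart.

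**Figure D2:**
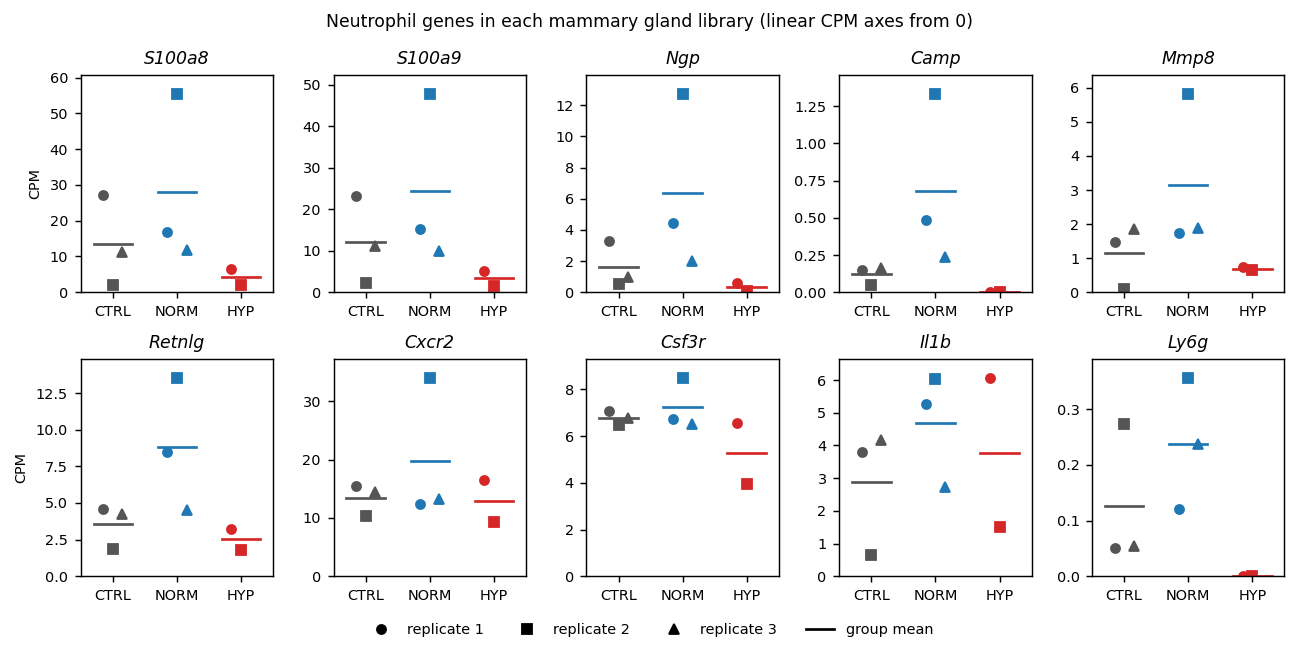
Level of each of the 10 neutrophil genes (CPM, linear axes from 0) in every library of sEV-CTRL, sEV-NORM and sEV-HYP glands, with a symbol per replicate and a line at the group mean. sEV-NORM replicate 2 (blue square) is the highest library for 9 genes, and both sEV-HYP libraries lie below all sEV-NORM libraries for S100a8, S100a9, Ngp, Camp, Mmp8, Retnlg and Ly6g.

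The comparison of sEV-HYP with sEV-NORM asks how the gland differs when the same tumor cells released their vesicles in hypoxia rather than in normoxia. In edgeR's quasi-likelihood test, 4 of the 8 genes were lower with sEV-HYP at an unadjusted P under 0.05 (S100a8, S100a9, Ngp and Retnlg), against 1.7% of all genes tested that were lower at that threshold and 3.95% that differed in either direction. The median log2 fold change of the 8 genes was -1.99, against -0.02 over all genes. For 5 of the 8, both sEV-HYP libraries lay below all 3 sEV-NORM libraries (these 4 and Mmp8), which held for 10.5% of all genes tested. Without the filter, 7 of the 10 members were lower at that threshold (these 5, Camp and Ly6g, edgeR unadjusted P of 0.000222 to 0.0225), against 1.7% of the 27246 genes with a count. The adjusted P (Benjamini-Hochberg over all genes tested, edgeR) was 1 for each member tested, and 0 of the 17858 genes tested passed an adjusted P of 0.05, with 706 at an unadjusted P under 0.05. DESeq2 on all libraries called 16 genes at an adjusted P of 0.05, none of them a neutrophil gene. Of the 8 genes, the number past the unadjusted threshold was 2 without sEV-NORM replicate 2 (Ngp and Retnlg), 1 without sEV-HYP replicate 2 (Ngp), 4 with the B cell covariate and 1 with the skeletal muscle covariate (Ngp).

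S100a8 and S100a9, the subunits of the calcium- and zinc-binding alarmin calprotectin, gave nearly equal counts in every library, not divided by the length of their exons. S100a8 was 27.1, 2.14 and 11.1 CPM in the sEV-CTRL libraries, 16.7, 55.3 and 11.7 CPM in sEV-NORM, and 6.41 and 2.14 CPM in sEV-HYP. The sEV-HYP values lay below every sEV-NORM value and in the lower part of the sEV-CTRL range. Group means were 13.4 ± 12.6 CPM (SD, n = 3), 27.9 ± 23.9 CPM (SD, n = 3) and 4.28 ± 3.02 CPM (SD, n = 2). S100a8 was 6.47-fold lower with sEV-HYP than with sEV-NORM (log2 fold change -2.69, SE 1.06, edgeR unadjusted P = 0.0309).

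S100a9 was 23.2, 2.1 and 11.1 CPM in sEV-CTRL, 15.3, 47.7 and 9.89 CPM in sEV-NORM, and 5.13 and 1.55 CPM in sEV-HYP. The order of the libraries was close to that of S100a8, with the same highest and lowest library. S100a9 was lower with sEV-HYP than with sEV-NORM by a log2 fold change of -2.85 (SE 1.04, edgeR unadjusted P = 0.0231). Both calls were lost without sEV-NORM replicate 2, at -1.72 (unadjusted P = 0.106) for S100a8 and -1.90 (unadjusted P = 0.0752) for S100a9 in edgeR, and without sEV-HYP replicate 2, at -2.12 (unadjusted P = 0.144) and -2.24 (unadjusted P = 0.117). The call of S100a8 was also lost without sEV-CTRL replicate 3, at -2.70 (unadjusted P = 0.0525). With the B cell covariate the log2 fold changes were -1.49 (edgeR unadjusted P = 0.0203) and -1.70 (unadjusted P = 0.00977), and with the skeletal muscle covariate -0.96 (unadjusted P = 0.21) and -1.19 (unadjusted P = 0.13).

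Across the 8 libraries, log2 CPM of S100a8 and S100a9 correlated with a Pearson r of 0.996 (exact permutation p = 7.44e-05, adjusted over 45 pairs of members 0.00335) and a Spearman rho of 0.976 (exact permutation p = 0.000397, adjusted 0.00446). Without sEV-CTRL replicate 2 and sEV-HYP replicate 2, the libraries farthest from the median of S100a8, r was 0.995. The ratio of S100a8 to S100a9 counts was 1.17, 1.02 and 1 in sEV-CTRL, 1.09, 1.16 and 1.18 in sEV-NORM, and 1.25 and 1.38 in sEV-HYP. The ratio thus stayed between 1 and 1.38 while the level of S100a8 varied 25.8-fold over the libraries. The highest ratio came from the library with the fewest counts, 40 for S100a8 and 29 for S100a9.

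**Figure D3:**
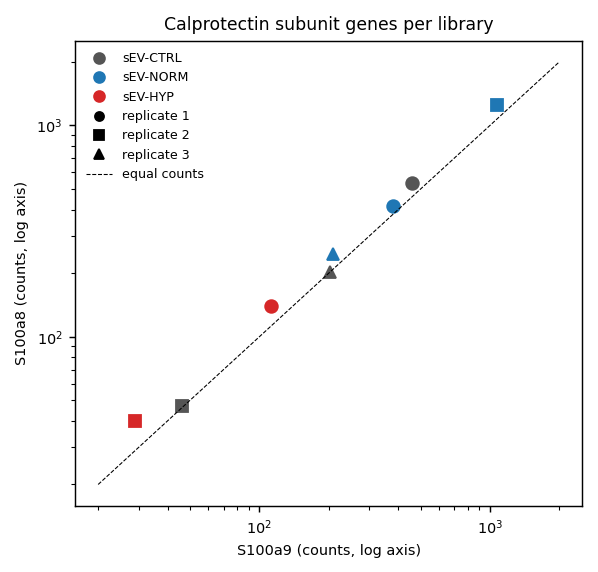
Counts of S100a8 (vertical) against S100a9 (horizontal) in the 8 libraries, on log axes, with colors for groups and symbols for replicates. All libraries lie on or above the line of equal counts, from 40 and 29 counts in sEV-HYP replicate 2 to 1248 and 1076 counts in sEV-NORM replicate 2.

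Ngp, which encodes neutrophilic granule protein, a cathelicidin-related protein of the specific granules, varied most among the members with counts in every library. Its counts were 65, 11 and 18 in sEV-CTRL, 110, 286 and 42 in sEV-NORM, and 13 and 1 in sEV-HYP, which is 3.3, 0.502 and 0.985 CPM, 4.42, 12.7 and 1.99 CPM, and 0.596 and 0.0535 CPM. Both sEV-HYP libraries lay below every sEV-NORM library, and 1 of them lay within the sEV-CTRL range. Ngp was 18.7-fold lower with sEV-HYP than with sEV-NORM (log2 fold change -4.22, SE 1.2, edgeR unadjusted P = 0.00647). The 1 count in sEV-HYP replicate 2 is under the floor of 3 counts used below for Camp, so the size of this fold is uncertain. The call held without each library in turn, with log2 fold changes of -6.74 (without sEV-HYP replicate 1) to -3.24 (without sEV-NORM replicate 2). It was -3.09 (edgeR unadjusted P = 3.1e-05) with the B cell covariate and -2.63 (unadjusted P = 0.0144) with the skeletal muscle covariate.

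Camp encodes cathelicidin, the antimicrobial peptide precursor of the specific granules (ENSMUSG00000038357, chr9:109847379-109849617, minus strand). Its counts were 3, 1 and 3 in sEV-CTRL, 12, 30 and 5 in sEV-NORM, and 0 and 0 in sEV-HYP. A count of 0 allows up to 3 counts in a library, and against that floor Camp was at least 4.58-fold lower with sEV-HYP than with sEV-NORM. Its sEV-NORM replicates 1 and 2 were the only libraries at the filter's cutoff of 0.469 CPM, which 2 libraries had to reach, and without either of them it did not pass. The fold is therefore given as a description of the counts, and the fit without the filter, which all genes with a count enter, gave an edgeR unadjusted P of 0.00112. Floors and counting intervals cover counting error only.

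Mmp8, the neutrophil collagenase of the specific granules (ENSMUSG00000005800, chr9:7558456-7568485, plus strand), was 1.47, 0.0912 and 1.86 CPM in sEV-CTRL, 1.73, 5.81 and 1.89 CPM in sEV-NORM, and 0.733 and 0.642 CPM in sEV-HYP. The groups did not overlap between sEV-HYP and sEV-NORM, and sEV-CTRL spanned the sEV-HYP values. Against sEV-NORM, Mmp8 was at a log2 fold change of -2.18 (SE 0.98, edgeR unadjusted P = 0.0528), which missed the threshold. It was past it at unadjusted P = 0.00869 without sEV-CTRL replicate 2, a library that is not part of this comparison but enters the estimate of the spread, and at -2.47 (unadjusted P = 0.0458) and -2.44 (unadjusted P = 0.0489) without sEV-NORM replicate 1 or 3, all in edgeR.

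Retnlg encodes resistin-like gamma, a small secreted protein abundant in mature neutrophils (ENSMUSG00000022651, chr16:48872621-48874496, plus strand). It was 4.57, 1.87 and 4.27 CPM in sEV-CTRL, 8.45, 13.5 and 4.54 CPM in sEV-NORM, and 3.21 and 1.82 CPM in sEV-HYP. The lowest sEV-NORM library lay just below the highest sEV-CTRL library, and both sEV-HYP libraries lay below all sEV-NORM libraries. Retnlg was 3.5-fold lower with sEV-HYP than with sEV-NORM (log2 fold change -1.81, SE 0.56, edgeR unadjusted P = 0.00979). The call was lost without sEV-HYP replicate 2 (-1.46, unadjusted P = 0.0682) and with the skeletal muscle covariate (-1.05, unadjusted P = 0.0561), and held with the B cell covariate (-1.18, edgeR unadjusted P = 0.0106). Over the 8 libraries log2 CPM of Retnlg and Ngp had a Pearson r of 0.938 (exact permutation, adjusted over the 45 pairs 0.00474) and the same rank order (Spearman rho 1), with r of 0.877 without sEV-HYP replicate 2 and sEV-NORM replicate 2.

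The receptors did not pass the test. Cxcr2, the receptor for neutrophil-attracting CXC chemokines (ENSMUSG00000026180, chr1:74153989-74161246, plus strand), was 15.4, 10.4 and 14.5 CPM in sEV-CTRL, 12.3, 33.9 and 13.2 CPM in sEV-NORM, and 16.5 and 9.21 CPM in sEV-HYP. One library, sEV-NORM replicate 2, stood above the other 7, which lay between 9.21 and 16.5 CPM. The log2 fold change of sEV-HYP against sEV-NORM was -0.62 (SE 0.46, edgeR unadjusted P = 0.211) with that library and 0.01 (unadjusted P = 0.967) without it. Csf3r, the receptor of granulocyte colony-stimulating factor (ENSMUSG00000028859, chr4:126024550-126044440, plus strand), was 7.06, 6.48 and 6.79 CPM in sEV-CTRL, 6.72, 8.47 and 6.53 CPM in sEV-NORM, and 6.55 and 3.96 CPM in sEV-HYP. It was the steadiest member, with a 2.14-fold range over the 8 libraries, and only sEV-HYP replicate 2 lay apart from the others on the low side. Its log2 fold change was -0.46 (SE 0.28, edgeR unadjusted P = 0.131), and -0.87 (unadjusted P = 0.0309) without sEV-HYP replicate 1.

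Il1b, the pro-inflammatory cytokine interleukin-1 beta (ENSMUSG00000027398, chr2:129364570-129371139, minus strand), behaved differently from the granule genes in its ranking of the libraries. It was 3.81, 0.638 and 4.16 CPM in sEV-CTRL, 5.27, 6.03 and 2.74 CPM in sEV-NORM, and 6.05 and 1.5 CPM in sEV-HYP. The 2 sEV-HYP libraries included the highest of all 8 and the second lowest, and all 3 groups overlapped. Against sEV-NORM, Il1b was at a log2 fold change of -0.31 (SE 0.76, edgeR unadjusted P = 0.698), and it was 0.37 (unadjusted P = 0.667) without sEV-HYP replicate 2. Its correlation with S100a8 (Pearson r 0.773, exact permutation p = 0.024, adjusted 0.0491) rested on sEV-CTRL replicate 2 and sEV-HYP replicate 2, without which r was 0.168, and its Spearman rho of 0.5 did not pass (exact permutation p = 0.216, adjusted 0.27). Il1b overlaps the antisense gene Il1bos, which had 0 to 10 counts in a library.

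Ly6g, the antigen of the antibody that defines mouse neutrophils by flow cytometry (ENSMUSG00000022582, chr15:75155240-75159126, plus strand), was close to the limit of detection. Its counts were 1, 6 and 1 in sEV-CTRL, 3, 8 and 5 in sEV-NORM, and 0 and 0 in sEV-HYP. All 3 sEV-NORM libraries lay above the sEV-HYP libraries, and sEV-CTRL replicate 2, among the lowest for the granule genes, was the second highest for Ly6g. Against the floor of 3 counts, Ly6g was at least 1.59-fold lower with sEV-HYP than with sEV-NORM. Without the filter on low counts the unadjusted P was 0.0225 in edgeR. The Ly6 genes form a family of similar sequences, and reads could have been divided among them, so its counts are uncertain.

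**Figure D4:**
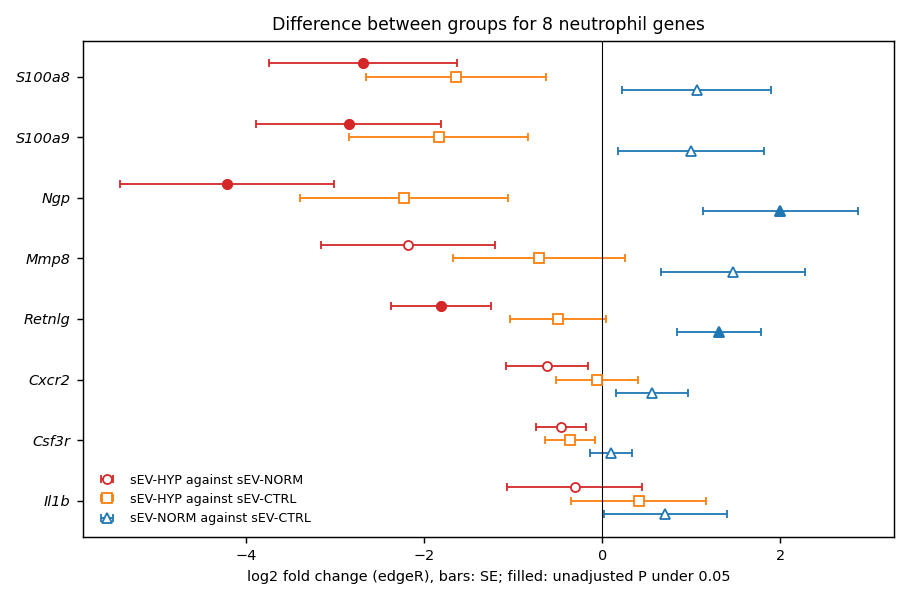
Log2 fold changes (points) with their SE (bars) from edgeR for 8 neutrophil genes in the 3 comparisons, filled where the unadjusted P is under 0.05. Against sEV-NORM, the sEV-HYP differences of S100a8, S100a9, Ngp and Retnlg are filled and on the low side. Ngp and Retnlg are filled on the high side for sEV-NORM against sEV-CTRL, and no gene is filled for sEV-HYP against sEV-CTRL. Camp, with no counts in sEV-HYP, and Ly6g, not tested, are left out.

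The comparison of sEV-HYP with sEV-CTRL asks how glands given hypoxic vesicles differ from glands given the control preparation. No neutrophil gene passed an unadjusted P of 0.05 in edgeR (0 of 8, against 2.45% of all genes tested, and 1 of 8, Ngp, in DESeq2 on these groups alone), and the adjusted P was 1 for each. The median log2 fold change was -0.60, with 7 of the 8 below 0. S100a8 was at -1.64 (SE 1.01, unadjusted P = 0.141), S100a9 at -1.84 (SE 1.01, unadjusted P = 0.0996) and Ngp at -2.23 (SE 1.17, unadjusted P = 0.0881) in edgeR. Retnlg (-0.50, unadjusted P = 0.38), Mmp8 (-0.71, unadjusted P = 0.482), Csf3r (-0.36, unadjusted P = 0.222) and Cxcr2 (-0.06, unadjusted P = 0.898) were nearer to 0, and Il1b was at 0.41 (unadjusted P = 0.607). Camp and Ly6g were at or under the floor of 3 counts in mean level in both groups, so no fold is given.

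Calls in this comparison depended on sEV-CTRL replicate 2. Its level was below both sEV-HYP libraries for Mmp8 and Il1b and within 1.5-fold of sEV-HYP replicate 2 for S100a8, S100a9, Retnlg and Cxcr2. Without it, S100a8 (-2.14, unadjusted P = 0.0338) and S100a9 (-2.34, unadjusted P = 0.0229) passed the unadjusted threshold in edgeR and the median was -1.04. Leaving out that library also raised the number of all genes past the threshold from 438 to 1472, so the added calls were not particular to the neutrophil genes. Ngp (-4.75, unadjusted P = 0.0404) and Csf3r (-0.77, unadjusted P = 0.0483) passed it without sEV-HYP replicate 1. Without the filter on low counts, 4 of the 10 members were lower past it (S100a8, S100a9, Camp and Ngp, unadjusted P of 0.0216 to 0.0392 in edgeR), against 1.08% of all genes with a count.

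Comparing sEV-NORM with sEV-CTRL asks the same of normoxic vesicles. It shares its libraries with the comparisons above, so the values are given side by side and not as a separate line of evidence. Of the 8 genes, 2 were higher with sEV-NORM at an unadjusted P under 0.05 in edgeR (Ngp and Retnlg), against 0.89% of all genes tested that were higher and 1.62% that differed in either direction, with an adjusted P of 1 for each gene. All 8 log2 fold changes were above 0, with a median of 1.03 against -0.00 over all genes. The groups overlapped for each of the 8, while 2.69% of all genes tested had every sEV-NORM library above every sEV-CTRL library. Without the filter, 4 of the 10 members were higher past the threshold (Camp, Ngp, Retnlg and Mmp8, edgeR unadjusted P of 0.0045 to 0.0375), against 1.04% of all genes with a count. For Camp, described by its counts, the groups did not overlap and the ratio of summed counts was 5.87 (exact 95% counting interval 2.63 to 15.4). Retnlg was 2.48-fold higher (log2 fold change 1.31, SE 0.47, unadjusted P = 0.021) and Ngp 3.99-fold higher (2.00, SE 0.87, unadjusted P = 0.0479) in edgeR.

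The other 6 of these genes had unadjusted P values of 0.103 or more in that comparison. S100a8 and S100a9 were at 1.06 (SE 0.84, edgeR unadjusted P = 0.241) and 1.00 (SE 0.82, unadjusted P = 0.253), Mmp8 at 1.47 (unadjusted P = 0.103), Il1b at 0.71 (unadjusted P = 0.326), Cxcr2 at 0.56 (unadjusted P = 0.201) and Csf3r at 0.10 (unadjusted P = 0.704). The calls were lost without single libraries. Without sEV-NORM replicate 2, no neutrophil gene passed in edgeR, with Ngp at 1.01 (unadjusted P = 0.27), Retnlg at 0.87 (unadjusted P = 0.0999), S100a8 at 0.08 and S100a9 at 0.06. Without sEV-CTRL replicate 2, none passed either, with Ngp at 1.56 (unadjusted P = 0.125) and Retnlg at 1.00 (unadjusted P = 0.0623). Ngp was also no longer past the threshold without sEV-CTRL replicate 3 (1.75, unadjusted P = 0.143) or sEV-NORM replicate 1 (2.20, unadjusted P = 0.0554, with Retnlg the 1 gene called), and S100a8 passed it without sEV-CTRL replicate 1 (2.05, unadjusted P = 0.047). With the B cell covariate both genes passed, at 1.56 for Ngp (unadjusted P = 0.000312) and 1.04 for Retnlg (unadjusted P = 0.00584), and with the skeletal muscle covariate none did, at 1.07 (unadjusted P = 0.113) and 0.85 (unadjusted P = 0.0534), all in edgeR.

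Few of the other genes of neutrophil granules passed the test. The primary granule genes Mpo, Elane, Prtn3 and Ctsg, which encode myeloperoxidase and serine proteases, were all tested, and 0 of 4 passed an unadjusted P of 0.05 in any comparison in edgeR. Depending on the comparison, 1.62% to 3.95% of all genes tested passed, so 0 of 4 is near that share. The summed level of the 4 genes was 1.77 to 9.62 CPM over the 8 libraries, with sEV-NORM replicate 2 again the highest and sEV-NORM replicate 1 the lowest. Mpo passed the filter through sEV-NORM as Camp did, and is described by its mean level of 0.303 CPM in sEV-CTRL, 0.886 CPM in sEV-NORM and 0.122 CPM in sEV-HYP. For sEV-HYP against sEV-NORM, log2 fold changes were -1.23 for Elane, 0.25 for Prtn3 (SE 0.59, unadjusted P = 0.676) and -0.73 for Ctsg. In the same order they were -0.29, -0.18 and -1.32 for sEV-HYP against sEV-CTRL, and 0.94, -0.44 and -0.60 for sEV-NORM against sEV-CTRL. Of 10 further granule and oxidase genes, 8 were below 0 for sEV-HYP against sEV-NORM (median -0.31) and 8 against sEV-CTRL (median -0.32), and 6 were above 0 for sEV-NORM against sEV-CTRL (median 0.22). These counts and medians include Cd177, which passed the filter only with the sEV-CTRL libraries and was at -0.71 for sEV-HYP against sEV-CTRL. Past the threshold, 1 was lower with sEV-HYP than with sEV-NORM in edgeR, against 1.7% of all genes tested. This was Cybb, the catalytic subunit of the phagocyte NADPH oxidase, at -0.78 (SE 0.31, unadjusted P = 0.0353). Olfm4, olfactomedin 4, a protein of a subset of neutrophils, was higher than with sEV-CTRL both with sEV-HYP (2.72, SE 1.03, unadjusted P = 0.0273) and with sEV-NORM (2.55, SE 0.97, unadjusted P = 0.0268). Its difference for sEV-NORM had the sign of the granule genes above, while for sEV-HYP against sEV-NORM it was at 0.16 (unadjusted P = 0.865). Olfm4 was at 0.0508, 0.365 and 0 CPM in sEV-CTRL, 0.442, 1.68 and 0.52 CPM in sEV-NORM, and 1.01 and 0.963 CPM in sEV-HYP. Hp, haptoglobin, which fat cells also make, was at -0.04 (unadjusted P = 0.942) for sEV-HYP against sEV-NORM, and Lcn2, lipocalin 2, which epithelium also makes, at -0.67 (SE 0.36, unadjusted P = 0.0907).

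Of 13 further receptors and adhesion molecules of neutrophils, 12 were tested and 0 passed in any comparison in edgeR. Over all genes tested, 3.95% passed for sEV-HYP against sEV-NORM, 2.45% for sEV-HYP against sEV-CTRL and 1.62% for sEV-NORM against sEV-CTRL. Counts of 0 in lists this short are near these shares. Itgam, the integrin chain CD11b, was at 0.39 (SE 0.18, unadjusted P = 0.0588) for sEV-HYP against sEV-CTRL, and Fpr2, a formyl peptide receptor, at 1.03 (SE 0.53, unadjusted P = 0.0832) for sEV-NORM against sEV-CTRL. Of 5 transcription factors of the granulocyte lineage, 4 were tested (Cebpa, Cebpb, Gfi1 and Spi1) and 0 passed. The remaining factor, Cebpe, was below the filter. Its counts were 2, 5 and 4 in sEV-CTRL, 4, 4 and 3 in sEV-NORM, and 12 and 6 in sEV-HYP. Both sEV-HYP libraries lay above every sEV-NORM library, opposite to Ngp and Camp. That held for 2192 of the 17858 genes tested. Of the 5 stefin A genes, 1 was tested, Stfa2l1, and its P did not pass. It met the filter only with the sEV-CTRL libraries.

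Of 11 ligands and partners of these receptors and alarmins, 6 were tested. In any comparison in edgeR 0 of these 6 passed, against 1.62% to 3.95% of all genes tested. The 6 included Tlr4 and Ager, receptors for calprotectin, and Il1r1, the receptor for interleukin-1, which was at -0.12 (SE 0.17, unadjusted P = 0.504) for sEV-HYP against sEV-NORM. Csf3, the granulocyte colony-stimulating factor that binds Csf3r, was below the filter and is named because of its values. Its counts were 0, 2 and 1 in sEV-CTRL, 0, 1 and 1 in sEV-NORM, and 18 and 7 in sEV-HYP. Both sEV-HYP libraries lay above the other 6. Of the 17858 genes tested, 2192 had both sEV-HYP libraries above every sEV-NORM library, and 1197 had them above every sEV-CTRL library. Csf3 was picked for its values, so the intervals and P values given next describe those values and are no test of it. The ratio of summed counts was 21.2 against sEV-NORM (exact 95% counting interval 5.28 to 184) and 12.3 against sEV-CTRL (3.76 to 63.8). With no filter on low counts, edgeR gave an unadjusted P of 0.00802 (adjusted P = 0.879) against sEV-NORM and 0.018 (adjusted P = 1) against sEV-CTRL. The ligands of Cxcr2 gave few counts, with Cxcl1 at 0.662 to 1.46 CPM and Cxcl2 at 0.142 to 0.762 CPM over the libraries, and Il17a was at 0 in all of them.

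The marker lists of other cells show which components moved with the neutrophil genes. Depending on the comparison, 1.62% to 3.95% of all genes tested passed in either direction. Of 5 monocyte markers, Ly6c2 was lower (log2 fold change -1.03, SE 0.37, unadjusted P = 0.0219) and Vcan higher (0.47, SE 0.18, unadjusted P = 0.0263) with sEV-HYP than with sEV-NORM in edgeR, and the summed level was 281, 237 and 230 CPM in sEV-CTRL, 427, 376 and 255 CPM in sEV-NORM, and 318 and 187 CPM in sEV-HYP. Of 9 macrophage markers 0 passed in any comparison, with sums of 1265 to 1857 CPM and the lowest in sEV-HYP replicate 2. Keratinocyte markers are given because stressed keratinocytes make S100a8 and S100a9. Their sum was 70.3 CPM in sEV-NORM replicate 3 and 9.52 to 14.3 CPM elsewhere. S100a8 was 16.7, 55.3 and 11.7 CPM in sEV-NORM replicates 1 to 3. Of 5 keratinocyte markers tested, 1 was lower with sEV-HYP than with sEV-NORM (Dmkn, at -3.09, SE 1.06, edgeR unadjusted P = 0.017). That held for 1.7% of all genes tested. Krtdap and Krt6a reached the filter's cutoff in only 1 sEV-NORM and 1 sEV-HYP library each, so their tests are not used. Krtdap was at 9.56 CPM in sEV-NORM replicate 3 and 0.0443 to 0.535 CPM in the other libraries. Blood markers, including globins, summed to 557, 787 and 1325 CPM in sEV-CTRL, 1053, 791 and 1118 CPM in sEV-NORM, and 490 and 675 CPM in sEV-HYP. The sums of sEV-HYP and sEV-CTRL overlapped. All 5 tested were lower in both sEV-HYP libraries than in every sEV-NORM library, which held for 10.5% of all genes tested. Of these, 1 was past the threshold (Hbb-bs at -0.80). None of the B, T and muscle cell markers passed in any comparison in edgeR, although all 7 B cell markers had a log2 fold change below 0 (median -0.53) and all 7 skeletal muscle markers one above 0 (median 2.57) for sEV-HYP against sEV-NORM. Ppbp, 1 of 3 platelet markers tested, was at -1.44 (edgeR unadjusted P = 0.0125) for sEV-HYP against sEV-NORM and 1.17 (unadjusted P = 0.0168) for sEV-NORM against sEV-CTRL. The other platelet markers went the other way for sEV-HYP against sEV-NORM, with Pf4 at 0.20 and Itga2b at 0.11. The median of the platelet list was 0.11. Itgax of dendritic cells was at -0.49 (unadjusted P = 0.04) for sEV-HYP against sEV-NORM. The monocyte marker Plac8 was at 0.71 (unadjusted P = 0.0349) for sEV-NORM against sEV-CTRL. Against sEV-CTRL, Vcan (0.80, unadjusted P = 0.00151) and Oxtr of basal epithelium (0.76, unadjusted P = 0.0247) were higher with sEV-HYP. The part of monocytes, blood and keratinocytes in the differences of the neutrophil genes was not tested.

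**Figure D5:**
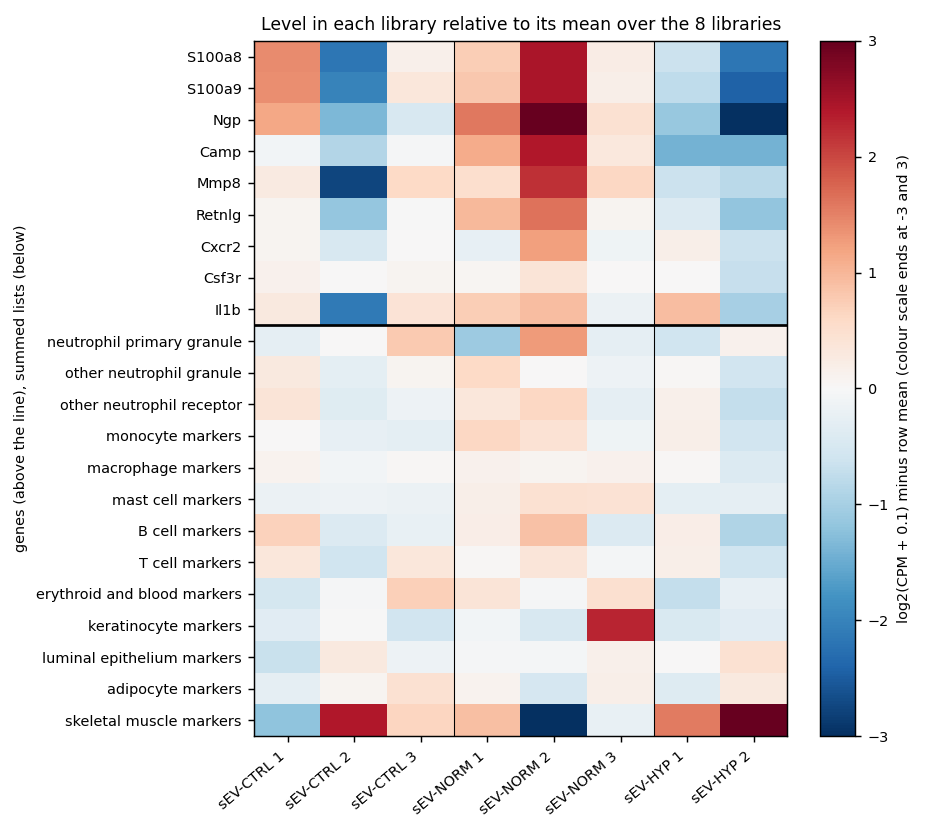
Level of 9 neutrophil genes (above the line) and of summed marker lists (below it) in each library, as log2(CPM + 0.1) minus the mean of the row. The granule genes and the B cell sum are highest in sEV-NORM replicate 2 and low in sEV-CTRL replicate 2 and sEV-HYP replicate 2, where the skeletal muscle sum has its highest values (7423 and 11572 CPM), and keratinocyte markers stand out in sEV-NORM replicate 3.

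The genes most like the alarmin pair were not granule genes. By Pearson r of log2 CPM over the 8 libraries with the mean of S100a8 and S100a9, the first 5 of the genes tested were Rtl6 (0.977), St6gal1 (0.975), Kcnj8 (0.975), Dennd3 (0.974) and Iglc2 (0.968). Iglc2 is an immunoglobulin light chain constant gene and St6gal1 a sialyltransferase abundant in B cells and liver. Among the neutrophil genes, Ngp ranked 41 (r 0.942), Retnlg 67 (0.931), Mmp8 409 (0.874), Camp 581 (0.852), Cxcr2 966 (0.809), Csf3r 1186 (0.786) and Il1b 1402 (0.763). St6gal1 was 101, 54 and 70.4 CPM in sEV-CTRL, 84, 116 and 71.8 CPM in sEV-NORM, and 70 and 44.2 CPM in sEV-HYP, a far narrower range than that of S100a8. These are rankings over 8 points that share the differences between glands, given as a description. Over the 45 pairs of members, r ran from -0.16 to 0.996 with a median of 0.759, and 22 pairs had an adjusted exact permutation p under 0.05. The share among pairs of other genes was not computed. The count of 22 therefore does not show that the members are more alike than other genes.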

How the data were processed

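Polyadenylated RNA of 8 mammary glands was sequenced from Sense mRNA-Seq libraries. The authors aligned reads to mm10 (GRCm38) with STAR and obtained counts per Ensembl gene with RSEM 1.2.12, per the labels and the study's methods. The deposited values are raw counts without normalization, and the step that turned RSEM estimates into whole numbers is not given in the sources used here. Groups were taken from the treatment label, and no batch is labelled. The study gives animals as its replicates, and P values measure the spread between these glands. Total counts of 18194996 to 24622569 set a floor of 3 counts, or 0.121 to 0.164 CPM.

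Differences were tested with edgeR 4.0.16 in R 4.3.3 (two-sided quasi-likelihood F-test, TMM factors, low counts removed by filterByExpr at its minimum of 10) in 1 model of the 3 groups over 17858 genes, with 5 residual degrees of freedom. Calls used the study's threshold, an unadjusted P of 0.05, and adjusted P values are Benjamini-Hochberg over all genes tested. Log2 CPM for correlations and covariates used a prior count of 2. Exons and positions came from GENCODE M21, and promoters from RefSeq. Genes without a symbol held 0.0389% of the counts.

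The members and lists were chosen with earlier results of these data known. All 10 members are named, and of each other list up to 3 genes with the lowest P, those past 0.05 or the most abundant, plus the 5 genes most like S100a8 and S100a9. Csf3 and Cebpe, both below the filter, are named because of their values. Camp passed the filter through sEV-NORM alone and was left out of counts and medians over the members, a choice made with the values known. Simulated counts served to check the procedure. Alternatives were DESeq2 1.42.0 on all libraries or on the groups compared, its size factors, edgeR on the groups compared, other filters (none, or 10 counts or more in each library), a block for the replicate number, and each library left out. The B cell and skeletal muscle covariates were added after the data were seen. For 1 gene of the receptor list, values are not reported here.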

Additional observations from a re-analysis of the deposited data

How the results depend on the processing

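In edgeR on all groups, as reported, no gene passed an adjusted P of 0.05. DESeq2 on only the groups compared gave 14, 83 and 3 genes for sEV-HYP against sEV-CTRL, sEV-HYP against sEV-NORM and sEV-NORM against sEV-CTRL, DESeq2 on all libraries gave 4, 16 and 2, and edgeR without the filter gave 1 for sEV-HYP against sEV-NORM. None of them was a neutrophil gene. Genes past an unadjusted P of 0.05 numbered 438, 706 and 290, against 672, 1102 and 533 without the filter, 1195 for sEV-HYP against sEV-NORM with DESeq2 on those groups, 863 for sEV-HYP against sEV-CTRL and 452 for sEV-NORM against sEV-CTRL with the B cell covariate, and 439 for the latter with the skeletal muscle covariate. With 1 library left out they were 341 to 1472, 415 to 986 and 222 to 1018.

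Of the 8 neutrophil genes counted, 0, 4 and 2 were past the unadjusted threshold in the same order. For sEV-HYP against sEV-CTRL the number was 3 without the filter, 1 with DESeq2 on the groups compared and 1 with the B cell covariate. For sEV-HYP against sEV-NORM it was 1 with the skeletal muscle covariate, where the median log2 fold change was -0.86 in place of -1.99. For sEV-NORM against sEV-CTRL it was 1 with at least 10 counts in every library (6 of the genes tested), 1 with DESeq2 on all libraries and 0 with the skeletal muscle covariate, where the median was 0.26 in place of 1.03. With 1 library left out the numbers were 0 to 2, 1 to 5 and 0 to 3, and the medians -1.04 to -0.36, -2.28 to -1.38 and 0.29 to 1.59. With the replicate number as a block, 1 gene passed for sEV-NORM against sEV-CTRL (Retnlg) in place of 2. Deviations of libraries with the same number correlated at -0.416 to 0.369, and those with other numbers at -0.369 to 0.467. So few correlations cannot settle whether the numbers pair the glands.

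Directions reversed only for the receptors and Il1b among the results named. For sEV-HYP against sEV-CTRL, Cxcr2 ran from -0.54 to 0.29 with 1 library left out (0.04 without the first sEV-CTRL library) and was 0.19 with the B cell and 0.25 with the skeletal muscle covariate, and Il1b ran from -0.93 to 1.07 (-0.07 without the second sEV-CTRL library). For sEV-HYP against sEV-NORM, Cxcr2 ran from -1.10 to 0.01 and was 0.36 with the skeletal muscle covariate, and Il1b ran from -1.64 to 0.37 and was 0.23 with the B cell and 0.29 with the skeletal muscle covariate. For sEV-NORM against sEV-CTRL, Cxcr2 ran from -0.07 to 0.81 and Csf3r from -0.03 to 0.16, and with the skeletal muscle covariate they were -0.12 and -0.06. Why the values moved was not tested. With 2 sEV-HYP glands, and with a lone gland assumed to vary like the other groups where 1 was left out, the fold changes carry wide errors. Camp, Ly6g, Csf3 and Cebpe rest on few counts, and so does Ngp in the sEV-HYP glands.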

Other observations

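Mast cell genes also differed between the groups, in the direction of the granule genes but with little spread between glands. All 5 markers tested (Cpa3, Mcpt4, Cma1, Tpsb2 and Mrgprb1) had higher levels in sEV-NORM glands than in sEV-CTRL glands at an unadjusted P under 0.05 in edgeR, against 0.89% of all genes tested that were higher, and 4 of them were lower with sEV-HYP than with sEV-NORM, against 1.7% of all genes tested that were lower, the exception being Mrgprb1 (-0.43, unadjusted P = 0.0714). Cma1, a chymase of connective tissue mast cells, was 56.6, 56 and 54.4 CPM in sEV-CTRL, 79.3, 83 and 87.3 CPM in sEV-NORM, and 53.2 and 52.6 CPM in sEV-HYP. Its log2 fold change was -0.65 (SE 0.13, unadjusted P = 0.000889) for sEV-HYP against sEV-NORM and 0.58 (SE 0.12, unadjusted P = 0.00084) for sEV-NORM against sEV-CTRL, with an adjusted P of 1 in both (edgeR). The summed level of the 5 genes was 225 to 228 CPM in sEV-CTRL, 288 to 347 CPM in sEV-NORM, and 209 and 211 CPM in sEV-HYP. Unlike S100a8 or Ngp, sEV-NORM replicate 2 did not stand apart from sEV-NORM replicate 3, at 347 and 346 CPM.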
